A study of Mus musculus with 14 samples.

Results

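The genes described here are p53 and 9 of its classic transcriptional targets in mouse embryonic stem cells and the embryoid bodies grown from them. They were chosen by name: Trp53 (the gene of p53), Mdm2, Ccng1, Bax, Bbc3, Perp, Gdf15, Sesn2, Trp53inp1 and Zmat3. Of these 10 genes, 7 have a probe set that the array's annotation assigns to them alone, 13 probe sets in all, and all 7 were tested among 14365 genes. Trp53, Bax and Gdf15 have no such probe set in the annotation used and are not analysed here. In all, the arrays name 18194 genes. Embryonic stem cells (ESC) are the undifferentiated cells of the early embryo kept in culture, and embryoid bodies (EB) are the aggregates in which they differentiate into many cell types at once. Wild-type (WT) lines B21, J1 and R1 were each measured once as ESC and once as EB, which gives 3 arrays in each of these groups. Lines labelled TKO gave 3 ESC arrays (7-4-1, Dutch and Ta1-12) and 5 EB arrays (the same lines with 2-55-2 and 14-14-4). TKO is not spelled out in the labels. From the title of the series it is read here as a triple knockout of the retinoblastoma family, that is of Rb1, Rbl1 and Rbl2. They also do not give the age of the EB, the strain of each line or how its genes were deleted, and no treatment or DNA-damaging agent is named for any group.

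p53 is a transcription factor that is held at a low level in unstressed cells and accumulates after DNA damage and other stress. It then turns on genes that halt the cell cycle, repair DNA, kill the cell or adjust its metabolism. It also turns on genes that switch p53 itself off again. Retinoblastoma family proteins hold back E2F factors, and E2F activity released by their loss is known to act on p53 through Cdkn2a, whose ARF product blocks Mdm2. ESC are known for ample p53 protein and a short G1 phase.

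The arrays report fluorescence intensity per probe set, and the median probe set of an array lay between 83.2 and 108. Below, a log2 change is the difference of group means of log2 intensity after values under 32 were raised to 32, given with its standard error. A gene counts as called where its Benjamini-Hochberg adjusted p from limma, taken over all 14365 genes, is under 0.05. Levels of different probe sets are not compared with each other, since probes differ in brightness. The summed intensity of 7 markers of undifferentiated ESC was 62999 to 84883 on the ESC arrays and 506.5 to 1186 on the WT EB arrays. On the TKO EB arrays it spread from 289.9 in Ta1-12 to 49694 in 14-14-4 and 61844 in Dutch. Rbl1 lay at 24.5 on the TKO ESC array of 7-4-1, at 250.3 in Dutch and at 492.5 in Ta1-12, against 355.6 to 693.8 in WT ESC. In TKO EB it lay at 15.9 to 38.3 in 14-14-4, 2-55-2 and 7-4-1, at 377.1 in Dutch and at 1096 in Ta1-12, against 493.0 to 1090 in WT EB. The Ta1-12 arrays thus held Rbl1 at WT levels. Rb1 and Rbl2 overlapped between the genotypes in both stages. In EB, Rbl2 overlapped through 7-4-1 (733.0) and Ta1-12 (1098.7). It lay at 313.8 in 14-14-4, 296.8 in 2-55-2 and 456.1 in Dutch, against 722.8 to 1726.9 in WT EB. Whether the probes of Rb1 and Rbl2 lie in the deleted parts is not known here. Results are therefore also given without both Ta1-12 arrays and without the EB of Dutch and 14-14-4. RNA was taken from whole cultures, so fewer cells of a type and less RNA per cell cannot be told apart.

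When WT cells formed EB, the cell-cycle gene Ccng1 and the membrane gene Perp rose and the death gene Bbc3 fell, while Mdm2, Sesn2, Trp53inp1 and Zmat3 were not called. So 3 of the 7 measured targets were called, 2 higher and 1 lower, where 43.6% of all genes were called, 26.2% higher and 17.4% lower. The share of called members is near that of any gene, and the median change of the members was 0.19 against 0.13 over all genes. In the TKO lines Ccng1 and Perp were called again, both higher, which is 2 of 7 against 35.7% of all genes (20.8% higher). No member was called for a difference between TKO and WT at either stage or in the change between stages.

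**Figure D1:**
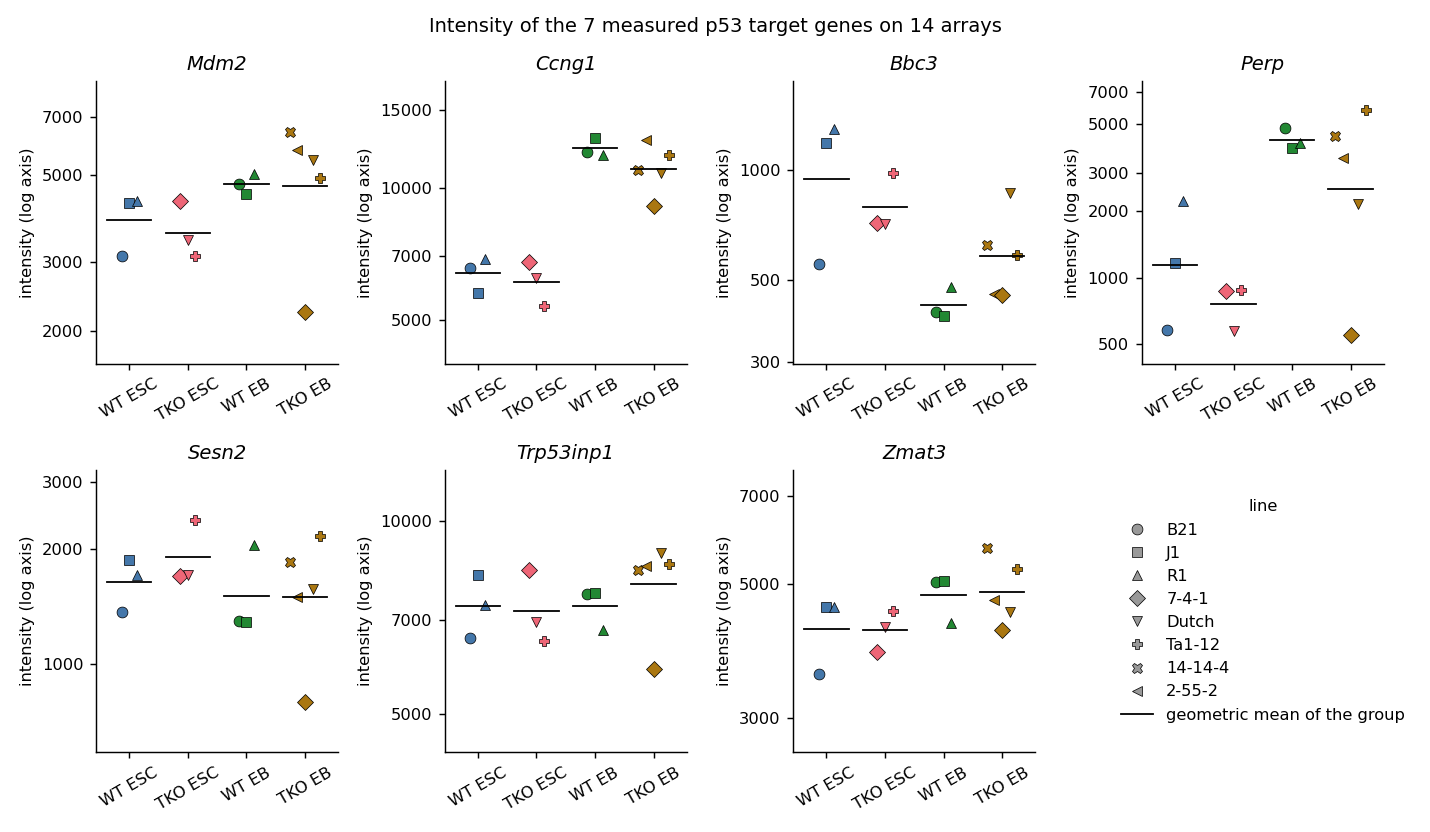
Intensity on a log axis of each measured p53 target on all 14 arrays, by group; each point is 1 array, its shape is the line, its colour the group, and the bar is the geometric mean of the group. Ccng1 is higher in all EB than in all ESC, and the TKO EB of line 7-4-1 (diamonds) is the lowest TKO EB point in all 7 panels.

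Ccng1 encodes cyclin G1, which recruits a phosphatase subunit to Mdm2 and is among the strongest known p53 targets. In WT ESC its intensity was 6560.5 in B21, 5762 in J1 and 6879 in R1. In WT EB it was 12058, 12933 and 11841 in the same lines. Every EB array was above every ESC array. The change was 0.94 ± 0.12, a 1.92-fold rise (95% interval 0.68 to 1.21 on the log2 scale; adjusted p = 2.50e-04). In the TKO lines the ESC arrays held 6782 (7-4-1), 6239.7 (Dutch) and 5373 (Ta1-12). The TKO EB arrays held 9076 in 7-4-1, 10785 in Dutch, 11831 in Ta1-12, 10955 in 14-14-4 and 12824 in 2-55-2. Again no ESC array reached an EB array, and the change was 0.85 ± 0.11, or 1.81-fold (adjusted p = 1.93e-04). In WT, 4 of 7 members (Ccng1, Perp, Bbc3 and Mdm2) separated the groups without overlap, against 60.2% of all genes, and in TKO Ccng1 was the only 1 of 7, against 35.7% of all genes. Ccng1 kept its call in both comparisons under all 30 alternative settings, with changes of 0.73 to 1.00 in WT and 0.72 to 1.00 in TKO.

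The 3 probe sets of Ccng1 did not behave alike. The one described above (1420827_a_at) and 1450017_at both rose, the latter by 1.08 ± 0.17 in WT and 1.02 ± 0.15 in TKO (adjusted p = 5.83e-04 and 3.68e-04 over all 31122 probe sets tested, of which 40.3% were called in WT and 35% in TKO). Probe set 1450016_at gave 0.16 ± 0.20 in WT (adjusted p = 0.533) and 0.41 ± 0.18 in TKO (adjusted p = 0.0849), and its arrays overlapped. Its intensities in WT lay between 6508 and 7115 as ESC and between 7058 and 7973 as EB. The part of the transcript each probe set reads is not given in the annotation used.

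Perp encodes a membrane protein of desmosomes, the junctions of epithelial cells, and is a p53 target in dying cells and a target of the p53 relative p63 in epidermis. In WT ESC its intensity was 581 in B21, 1170.0 in J1 and 2218 in R1, the widest spread of any member in that group (10.16 ± 0.97 as mean log2 and SD, n = 3). In WT EB it was 4792, 3869 and 4097 (12.05 ± 0.16), and no EB array overlapped an ESC array. The change was 1.89 ± 0.71, or 3.69-fold, with an adjusted p of 0.0456. In TKO ESC it was 869.8 in 7-4-1, 573 in Dutch and 876 in Ta1-12. In TKO EB it was 4405 in 14-14-4, 3506 in 2-55-2, 2149 in Dutch and 5785 in Ta1-12, but 550.5 in 7-4-1, which lay below all 3 TKO ESC arrays. The TKO change was 1.74 ± 0.63, or 3.35-fold (adjusted p = 0.0467).

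Both Perp calls sit just inside the threshold. With the line as a fixed block the adjusted p was 0.0643 in WT and 0.19 in TKO, where the change was 1.32. Of the 30 alternatives, 18 lost the call in WT and 21 in TKO, always with Perp higher in EB. The spread was estimated over all 4 groups, so TKO EB arrays also enter the WT p-value. With TKO EB 7-4-1 left out, the WT change stayed at 1.89 and its adjusted p was 0.00543. A fit of only the WT groups kept the WT call. Leaving out WT ESC B21 lost it (1.39, adjusted p = 0.172). Without TKO EB 7-4-1 the TKO change was 2.29 (adjusted p = 0.00206), and without both Ta1-12 arrays it was 1.55 (adjusted p = 0.15). Leaving out the EB of Dutch and 14-14-4 gave 1.56 (adjusted p = 0.107).

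Markers of epithelium partly followed Perp. The 7 epithelial markers were Krt5, Krt14, Krt15, Krt8, Krt18, Epcam and Trp63. Called were 3 (42.9%) in WT EB and 4 (57.1%) in TKO EB, all higher. Of all genes, 43.6% were called in WT (26.2% higher) and 35.7% in TKO (20.8% higher). The summed intensity of the 7 markers was 5304 in WT ESC B21, 16302 in J1 and 20191 in R1, the same order as Perp in these lines. It was 35622 to 44360 in WT EB, 5644.5 to 9128 in TKO ESC and 6046.0 to 56002 in TKO EB, with 7-4-1 lowest and Ta1-12 highest, as for Perp. The orders differed elsewhere: in TKO ESC, Perp was lowest in Dutch (573) and the sum in 7-4-1 (5644.5, against 7690 in Dutch). In TKO EB, 14-14-4 had the next highest Perp after Ta1-12 (4405) and the lowest sum but that of 7-4-1 (17579). In TKO EB Dutch, where Perp was at 2149, the markers differed among themselves. The basal keratin Krt15 was at 19.0, under the floor, with Krt5 at 35.8, Trp63 at 100.5 and Krt14 at 665.4. Krt8 was at 7414, Krt18 at 11156 and Epcam at 4920 on the same array. The part of epithelial cells in the Perp values was not tested. The genes whose profile over the 14 arrays was nearest to that of Perp, with each gene centred on its own mean, were Tnfrsf12a, Arap2 and Tmbim1. Their root-mean-square log2 differences from Perp were 0.36, 0.47 and 0.48.

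Bbc3 encodes PUMA, a BH3-only protein that triggers mitochondrial apoptosis. Its intensity in WT ESC was 552 in B21, 1177 in J1 and 1289 in R1, and in WT EB it was 409.7, 400.3 and 479.6. All EB arrays lay below all ESC arrays, of which that of B21 came nearest. Bbc3 fell by 1.14 on the log2 scale (standard error 0.32, to 0.454 of the ESC level, adjusted p = 0.0133). Without WT ESC J1 the change was -0.98 (adjusted p = 0.0564) and without WT ESC R1 it was -0.91 (adjusted p = 0.0587), so the call needs both of these arrays. In TKO ESC Bbc3 was at 715 in 7-4-1, 709 in Dutch and 977 in Ta1-12. In TKO EB it was at 623 in 14-14-4, 459 in 2-55-2, 456 in 7-4-1, 862 in Dutch and 585 in Ta1-12. The groups overlapped through Dutch, and the TKO change of -0.45 ± 0.29 was not called (adjusted p = 0.246). Dutch and 14-14-4, the TKO EB arrays with the most Bbc3, are also those with the largest sum of ESC markers. Without these EB arrays the change was -0.67 (adjusted p = 0.09), and the part of persisting ESC in it was not tested. The difference between the TKO and the WT change was 0.69 ± 0.43 (95% interval -0.25 to 1.63; adjusted p = 0.975), so the call in WT and its absence in TKO are not shown to differ.

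**Figure D2:**
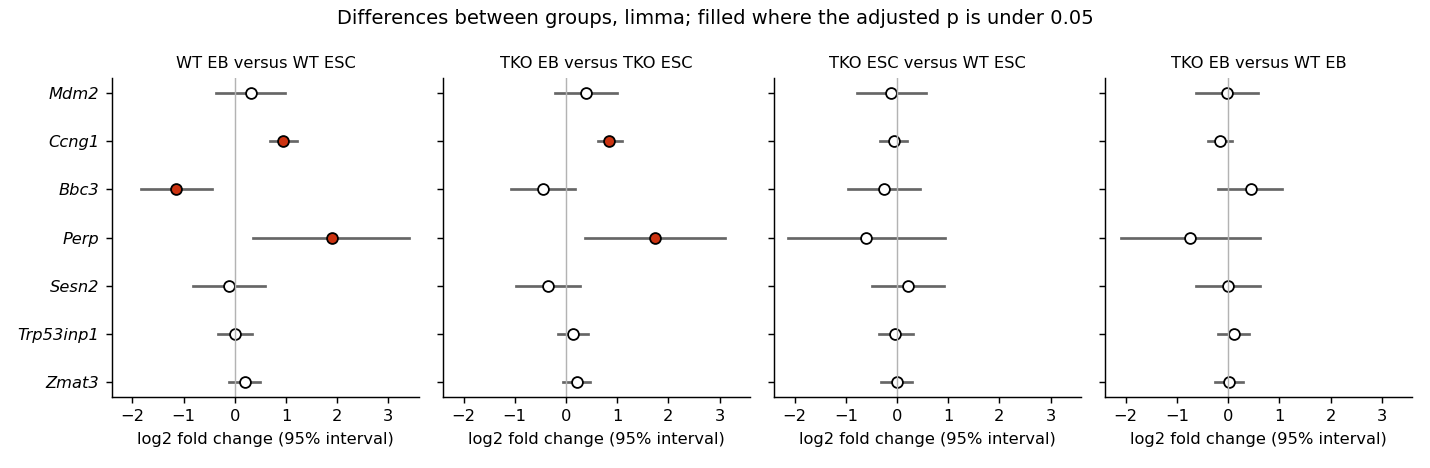
Log2 change of each measured p53 target with its 95% interval from limma, in the comparisons of EB with ESC (left) and of TKO with WT (right); filled points have an adjusted p under 0.05. Filled points appear for Ccng1, Bbc3 and Perp in WT and for Ccng1 and Perp in TKO, and the intervals of Perp are the widest.

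Mdm2 encodes the ubiquitin ligase that marks p53 for destruction and is itself induced by p53. Its intensity was 3109 in B21, 4224 in J1 and 4273 in R1 as WT ESC, and 4738, 4470.5 and 5022 as WT EB. The arrays did not overlap, but the change of 0.31 ± 0.31 was not called (95% interval -0.37 to 0.98; adjusted p = 0.438). In TKO ESC it was 4272 in 7-4-1, 3402 in Dutch and 3101 in Ta1-12. In TKO EB it was 6406 in 14-14-4, 5760.5 in 2-55-2, 5461 in Dutch and 4912 in Ta1-12, all above the ESC arrays, and 2233 in 7-4-1, below all of them. The change over these groups was 0.39 ± 0.28 (adjusted p = 0.292). Without TKO EB 7-4-1 it was 0.66 and called (adjusted p = 0.0063), and without both 7-4-1 arrays it was 0.79 (adjusted p = 0.0069). A further Mdm2 probe set, 1427718_a_at, gave 0.27 ± 0.44 in WT and 0.38 ± 0.39 in TKO and was also lowest in TKO EB 7-4-1, at 1085 against 2722 to 5527 on the other EB arrays. The remaining set, 1457929_at, stayed between 18.0 and 39.5 on all arrays and failed the filter on low values, so it adds no measurement.

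In the probe sets that stand for the genes, the group means of Sesn2, Trp53inp1 and Zmat3 lay within 0.35, 0.14 and 0.21 of each other on the log2 scale. Their further probe sets were wider, with ranges of 0.72 for Sesn2 (1425139_at) and 0.57 for Trp53inp1 (1416927_at), against 0.41 and 0.38 for the Mdm2 sets above the filter. Sesn2 encodes sestrin 2, a stress protein that restrains mTORC1. In the WT lines B21, J1 and R1 it was at 1369.5, 1872 and 1713 as ESC and at 1298, 1288 and 2051 as EB, which overlap, and the change was -0.12 ± 0.32. In TKO ESC it was at 1706 (7-4-1), 1713 (Dutch) and 2391 (Ta1-12). In TKO EB it was at 1855 in 14-14-4, 1501 in 2-55-2, 796 in 7-4-1, 1578 in Dutch and 2163 in Ta1-12. The TKO change of -0.35 ± 0.29 was not called (adjusted p = 0.362). The second Sesn2 probe set, 1425139_at, gave -0.72 ± 0.27 in TKO with no overlap between the stages and an adjusted p of 0.0584.

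Trp53inp1 encodes a stress protein that promotes p53 phosphorylation and autophagy. Its WT values were 6556, 8241 and 7393 as ESC and 7684, 7711 and 6766 as EB, a change of 0.00 ± 0.15. Its TKO values were 8372 in 7-4-1, 6944 in Dutch and 6491 in Ta1-12 as ESC. As TKO EB they were 8391 in 14-14-4, 8513 in 2-55-2, 5873 in 7-4-1, 8913 in Dutch and 8570.2 in Ta1-12, a change of 0.14 ± 0.14 (adjusted p = 0.447). Without both 7-4-1 arrays its TKO change was 0.36 and called (adjusted p = 0.03). The further probe set 1416927_at held 489, 901 and 587 in the WT lines as ESC and 433, 629.6 and 456 as EB, a change of -0.35 ± 0.39 (adjusted p = 0.494). In TKO ESC it held 905 in 7-4-1, 573 in Dutch and 456 in Ta1-12. In TKO EB it held 1188 in 14-14-4, 1047 in 2-55-2, 407 in 7-4-1, 739 in Dutch and 606 in Ta1-12, a change of 0.26 ± 0.35 (adjusted p = 0.58). For this set TKO EB differed from WT EB by 0.57 ± 0.35 (adjusted p = 0.48) and the changes differed between genotypes by 0.62 ± 0.53 (adjusted p = 0.966), neither called, with 0% of probe sets called in either comparison.

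Zmat3 encodes a zinc finger RNA-binding protein that acts in p53-driven growth suppression. Its WT values were 3546, 4586 and 4582 as ESC and 5049, 5064 and 4302 as EB, where R1 overlaps the ESC arrays, and the change was 0.19 ± 0.14 (adjusted p = 0.296). TKO ESC held 3862 in 7-4-1, 4242 in Dutch and 4506 in Ta1-12. TKO EB held 5740.0 in 14-14-4, 4702 in 2-55-2, 4190.0 in 7-4-1, 4502 in Dutch and 5304 in Ta1-12. The change was 0.21 ± 0.13 (adjusted p = 0.211), and the 95% interval reached 0.48, so a larger rise lies outside it.

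Between genotypes, 0 of 7 members were called in ESC, in EB or in the change between stages. The background was 0% in each, since limma called 0 of 14365 genes. At an unadjusted p under 0.05 the members also gave 0 of 7 each time, where all genes gave 2.74% in ESC, 14.2% in EB and 3.63% for the difference of the changes. No member separated TKO from WT arrays without overlap in ESC (11.5% of all genes did) or in EB (3.88%). In ESC only Sesn2 had a higher mean in TKO than in WT (0.22 ± 0.32). The differences (TKO minus WT) were -0.60 ± 0.71 for Perp, -0.25 ± 0.32 for Bbc3, -0.11 ± 0.31 for Mdm2, -0.06 ± 0.12 for Ccng1, -0.03 ± 0.15 for Trp53inp1 and -0.00 ± 0.14 for Zmat3. The 95% interval was -0.33 to 0.20 for Ccng1 and -2.12 to 0.93 for Perp, so ESC differences in Perp of several fold are not excluded by these arrays. In EB, Ccng1 differed by -0.15 ± 0.11 (interval -0.39 to 0.08), Bbc3 by 0.44 ± 0.29 (-0.19 to 1.06), Perp by -0.74 ± 0.63 (-2.10 to 0.63) and Mdm2 by -0.02 ± 0.28 (-0.62 to 0.58). The change on differentiation differed between genotypes by -0.09 ± 0.16 for Ccng1 and by -0.14 ± 0.95 for Perp. Without both Ta1-12 arrays, limma called 1101 genes between TKO EB and WT EB, and 0 of the 7 members were among them.

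The promoter of Ccng1 holds a near-complete match to a p53 response element, as does 1 of 2 promoters of Cdkn1a. Cdkn1a is the gene of the cell-cycle inhibitor p21 and the best known p53 target. A p53 half-site is 10 bases long. It reads 3 purines, a C, a pair of bases that are each A or T, a G and 3 pyrimidines. A full site was taken here as a pair of half-sites with no gap, 20 bases, which reads alike on both strands. Pairs with a gap between the half-sites were not searched. RefSeq promoter windows (GRCm38.p6, 250 bases before to 50 after a transcript start) were at hand for 7 of the 10 genes, 4 of them measured, and for none of Perp, Trp53inp1 and Zmat3. The best site had 1 mismatch in Ccng1 and in 1 of the Cdkn1a windows, which 0.0883% of 32851 windows reach. It had 3 mismatches in Trp53, in Bax and in the best of the 3 Bbc3 windows, whose others had 5 and 6 (6.29% of windows have at most 3). It had 5 in Mdm2, Sesn2, both Gdf15 windows and the other Cdkn1a window (76.6% have at most 5). The exact half-site, which was searched first, was found in the windows of Trp53, Mdm2, Ccng1 and Bax and in 1 Cdkn1a window. Of all windows, 8.36% hold it. Its best match had 1 mismatch in the other Cdkn1a window, 1 in Bbc3 and 2 in Sesn2 and Gdf15. The full-site measure, and the choice of which stretches to show, came after those matches were seen. The stretches below are the 2 nearest to a full site, with Bbc3, which moved the other way in WT; capitals mark the best full site.
Ccng1, chr11:40755422-40755521, minus strand: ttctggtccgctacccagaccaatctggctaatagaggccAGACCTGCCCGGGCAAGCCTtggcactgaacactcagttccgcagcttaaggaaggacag
Cdkn1a, chr17:29090879-29090978, plus strand: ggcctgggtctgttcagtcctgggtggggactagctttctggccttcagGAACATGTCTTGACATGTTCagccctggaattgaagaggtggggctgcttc
Bbc3, chr7:16309446-16309545, plus strand: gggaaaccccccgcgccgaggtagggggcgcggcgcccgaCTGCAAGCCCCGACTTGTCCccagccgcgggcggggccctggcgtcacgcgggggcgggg
Positions are counted from the transcript start of the window shown, 1 of 2 for Cdkn1a and 1 of 3 for Bbc3. The marked site spans positions -195 to -176 in Ccng1, -51 to -32 in Cdkn1a and -97 to -78 in Bbc3. Binding of p53 was not measured here, and known p53 sites outside these windows were not searched. Cdkn1a rose by 2.02 ± 0.24 in WT (4.04-fold, adjusted p = 1.71e-04) and by 2.16 ± 0.21 in TKO (4.48-fold, adjusted p = 4.33e-05). Its arrays of the 2 stages did not overlap in either genotype, with 1460.3 to 3024 in ESC and 6625 to 11332 in EB.

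The lines measured at both stages did not move alike, and TKO line 7-4-1 stood apart. The change from ESC to EB of the same line was positive for 5 of 7 members in B21, 4 in J1, 4 in R1, 6 in Dutch and 5 in Ta1-12, but for 2 of 7 in 7-4-1 (Ccng1 and Zmat3). The median member change was -0.65 in 7-4-1 against 0.08 to 0.51 in the other lines, while the median over all genes was 0.09 there and 0.05 to 0.17 elsewhere. Mdm2 changed by -0.94 in 7-4-1 and by 0.68 and 0.66 in Dutch and Ta1-12. Perp changed by -0.66 in 7-4-1 and by 1.91 and 2.72 in Dutch and Ta1-12. Cdkn1a was higher in the EB of all 6 lines, by 1.28 in 7-4-1 and by 1.78 to 2.84 in the others.

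**Figure D3:**
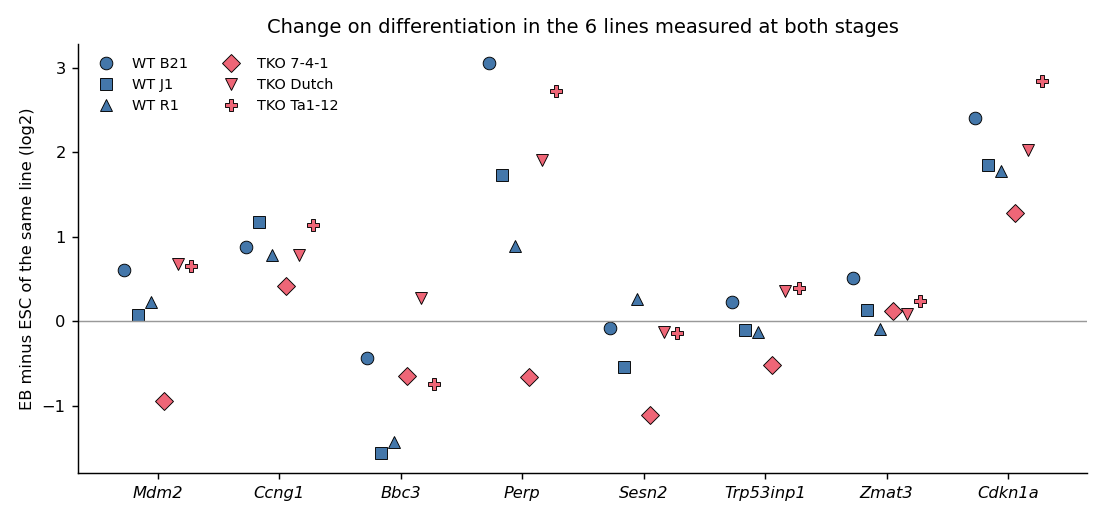
EB minus ESC of the same line in log2 intensity, for the 7 measured p53 targets and Cdkn1a in the 3 WT lines (blue) and the 3 TKO lines with both stages (red); each point is 1 pair of arrays, with no replicate. Line 7-4-1 (diamond) is the only line below 0 for Mdm2 and Perp, at -0.94 and -0.66.

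The low values of line 7-4-1 come from its EB array, and it was looked at more closely after they were seen, so what follows is a description with no test. TKO EB 7-4-1 was the lowest of all 8 EB arrays for 6 of the 7 members, Bbc3 being the exception, and the lowest of the 5 TKO EB arrays for 7 of 7. Of all genes, 14% were lowest there among the 8 and 18.3% among the 5. From the median of the other EB arrays, the members lay at -2.90 for Perp, -1.17 for Mdm2, -0.99 for Sesn2, -0.51 for Trp53inp1, -0.38 for Ccng1, -0.27 for Zmat3 and -0.07 for Bbc3 on the log2 scale. The median member lay at -0.51, and the median of all genes at 0.00. The median probe set of this array lay at 100, against 87.2 to 108 on the other EB arrays. Scaling at the higher intensities of the members and RNA quality were not tested. As ESC, line 7-4-1 was the highest TKO array for Mdm2, Ccng1 and Trp53inp1.

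The same array was low for a part of the other p53 targets too. Of 55 further targets tested, 21 (38.2%) had their lowest EB value in 7-4-1 and 5 their highest. Of all genes, 14% were lowest and 17.3% highest there. Below the median of the other EB arrays lay 37 of the 55 (67.3%), against 49.5% of all genes. The median of the 55 lay at -0.41 from that of the other EB arrays. Sfn, the gene of the cell-cycle protein 14-3-3 sigma, was at 64 against 166.0 to 937.6 on the other EB arrays. Pmaip1, which encodes the death protein NOXA, was at 168.8 against 185.7 to 1470 there. Epha2, an ephrin receptor, was at 73.1 against 230.7 to 855.8. Thbs1 was at 685.3 against 1181 to 8779, and Dcxr at 509.4 against 1486 to 2584. Sfn and Epha2 are also epithelial genes. Of the 7 epithelial markers, 4 (Krt14, Krt8, Krt18 and Epcam) were lowest of all EB in 7-4-1, with Epcam at 712.3 against 3367.5 to 6805. Their summed intensity was 6046.0 there and 17579 to 56002 on the other EB arrays. The sum of mesenchyme markers was the highest of all EB, 105197.5 against 26258 to 101232. Of 5 macrophage markers, Cd68 and Csf1r were lowest there, and their sum was 1963 against 1364.5 to 31884. The part of this mix of cell types in the low values of the p53 targets was not tested.

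**Figure D4:**
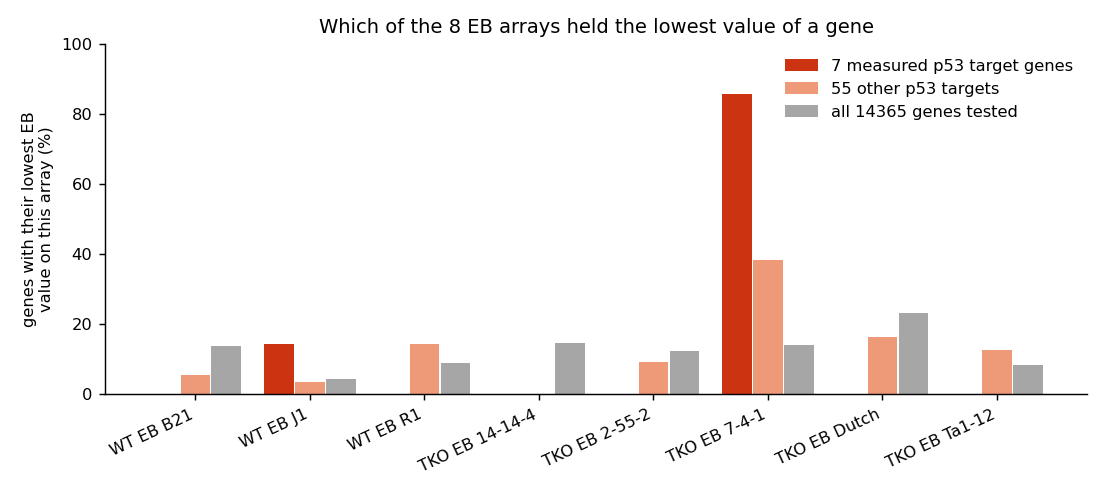
Share of genes whose lowest value among the 8 EB arrays lies on a given array, for the 7 measured p53 targets, 55 other p53 targets and all 14365 genes tested; bars start at 0 and show percent. TKO EB 7-4-1 holds the lowest value of 6 of 7 members and of 38.2% of the other targets, against 14% of all genes.

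Across these 55 other p53 targets, most of those that were called rose on differentiation. Of all genes called, 60.2% in WT and 58.2% in TKO were higher. In WT, 19 targets rose and 3 fell (40% called), with a median change of 0.40. Of all genes 43.6% were called there, 26.2% higher and 17.4% lower, with a median of 0.13. In TKO, 21 targets rose and 2 fell (41.8% called), with a median of 0.45. Of all genes 35.7% were called there, 20.8% higher and 14.9% lower, with a median of 0.08. Cdkn1a, Cd82, Ier5 and Fas had the smallest adjusted p in both. Fas, a death receptor, rose by 2.85 ± 0.47 in WT and 3.50 ± 0.42 in TKO (adjusted p = 7.99e-04 and 1.25e-04). Cd82, a tetraspanin, rose by 5.20 ± 0.65 and 4.48 ± 0.58 (adjusted p = 2.02e-04 and 1.98e-04). Ier5, an immediate early gene, rose by 2.69 ± 0.36 and 3.17 ± 0.32 (adjusted p = 2.70e-04 and 4.51e-05). The WT count was 14 without WT ESC B21 or without WT EB B21, and the TKO count was 15 without both Ta1-12 arrays. Of all 14365 genes, those WT fits called 4712 and 4589, in place of 6260. The TKO fit without Ta1-12 called 3068 of all genes, in place of 5132. Quantile normalization left 14 higher and 7 lower in WT, where 46.5% of all genes called were then higher.

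Of 35 tested genes that regulate p53, 7 rose and 14 fell in WT. That is 60% called, against 43.6% of all genes (26.2% higher and 17.4% lower). In TKO 4 rose and 11 fell, which is 42.9% against 35.7% (20.8% higher and 14.9% lower). Their median change was -0.21 in WT and -0.08 in TKO, against 0.13 and 0.08 over all genes. With the line as a fixed block the TKO count was 9 in place of 15, 1 higher and 8 lower. Of all 14365 genes, that fit called 3161 in TKO, in place of 5132. That fit also left out the TKO EB lines that have no ESC array. Without both Ta1-12 arrays, or without both 7-4-1 arrays, the TKO count was 10, where 3068 and 3101 of all genes were called. Chek2, a DNA damage kinase that phosphorylates p53, fell by 2.22 in WT and by 1.63 in TKO on the log2 scale (standard errors 0.27 and 0.24, adjusted p = 1.90e-04 and 4.35e-04). Hipk2, a kinase that favours p53-driven apoptosis, rose by 3.62 ± 0.58 and 3.08 ± 0.52 (adjusted p = 7.14e-04 and 9.57e-04). Ncl, the gene of nucleolin, fell by 0.76 and by 0.45 (standard errors 0.09 and 0.08, adjusted p = 1.50e-04 and 0.00132). Set, a histone chaperone that binds p53, fell in WT by 0.55 (standard error 0.09, adjusted p = 7.10e-04). Prmt5, an arginine methyltransferase, fell in TKO by 0.96 (standard error 0.19, adjusted p = 0.00244).

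Mdm4, the Mdm2 partner that masks the activation domain of p53, was at 4188 in B21, 2669 in J1 and 2072 in R1 as WT ESC, and at 1457, 1418 and 1197 as WT EB. It fell there by 1.08 (standard error 0.34, adjusted p = 0.0228) with no overlap. In TKO ESC it was at 3009 to 4244, and in TKO EB at 1177 to 2827, also without overlap, and the change of -0.81 ± 0.31 just missed the threshold (adjusted p = 0.0541). The p53 relative Trp73 fell in TKO by 0.84 (standard error 0.25, adjusted p = 0.0197) and was at -0.29 ± 0.28 in WT, not called. The relative Trp63 was not called in either (0.58 ± 0.31 in WT, 0.09 ± 0.28 in TKO). The difference of the changes was not called for Mdm4 (0.26 ± 0.46) or for Trp73 (-0.55 ± 0.37).

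None of the 35 regulators and 55 other targets was called between genotypes by limma, at either stage or in the difference of the changes. At an unadjusted p under 0.05, 9 regulators and 6 other targets differed between TKO EB and WT EB, where 14.2% of all genes did. The regulators with the smallest p there were Ncl (0.34 ± 0.08), the checkpoint kinase Chek1 (1.57 ± 0.37) and the deacetylase Sirt1 (0.84 ± 0.26), each at an adjusted p of 0.303, followed by Trim28 (0.35 ± 0.13, adjusted p = 0.317). Of the other targets they were Pcna, the replication clamp (0.47 ± 0.15), Psrc1 (0.53 ± 0.18), Gtse1 (0.96 ± 0.36) and Ckap2 (1.20 ± 0.47), at adjusted p of 0.303 to 0.317. Between TKO ESC and WT ESC the antigen peptide transporter Tap1 gave -1.63 ± 0.47 and the stress gene Ddit4 -0.64 ± 0.24, and the regulators Setd7 and Cdkn2a gave -0.96 ± 0.41 and 0.67 ± 0.50, all with an adjusted p of 1, as had Ppp1r13l, Rchy1, Thbs1 and Igfbp3, the next in their lists. For the difference of the changes the smallest p were those of Ncl (0.32 ± 0.12), Chek1 (1.47 ± 0.56), Sirt1 (0.74 ± 0.39) and Cdkn2a (-1.23 ± 0.67) among regulators. Among the other targets they were those of Ddit4 (0.94 ± 0.32), Tap1 (1.79 ± 0.63), Ercc5 (0.74 ± 0.40) and Pcna (0.40 ± 0.23), and all 8 had an adjusted p of 0.975. Comparisons that share a group share its arrays, so their values are not independent of each other.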

How the data were processed

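RNA of 14 mouse cultures was hybridised to Affymetrix arrays. The authors deposited 1 table of linear intensities for 45101 probe sets; background removal and array scaling are not given in the sources used here. Gene names came from the platform annotation: 34958 probe sets have 1 symbol, 932 several and 9211 none. Of the probe sets of a gene, the one with the highest mean log2 intensity after the floor stood for it; of 3 ways to take that mean, this was kept because it gave the gene count of an earlier analysis of these data. From the deposited intensities, log2 values with a floor of 32 were computed, and a gene was tested if it exceeded an array's 40th percentile on 3 or more arrays. The median log2 intensities of the arrays differed by 0.374, under the limit of 0.5 set for centring, so arrays were not rescaled. limma 3.58.1 (R 4.3.3; lmFit, contrasts, eBayes with trend) fitted 1 mean per group over all 14 arrays, with Benjamini-Hochberg adjustment over all 14365 genes and a threshold of 0.05; the script was tested on simulated data. Overlap of arrays was judged on the floored values.

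The line is the replicate, and the line name pairs arrays across stages. Deviations of the arrays of a line from their group means correlated at -0.046, -0.0776 and -0.0369 in B21, J1 and R1, and at 0.0664, 0.196 and 0.0903 in 7-4-1, Dutch and Ta1-12; the line as a block was an alternative. The fixed block used only the 12 arrays of lines measured at both stages. Scan dates were not given.

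The members and lists were chosen with earlier results of these data known. Named genes are the members with all their probe sets, Cdkn1a, Mdm4, Trp63 and Trp73, from each list the 4 with the smallest adjusted p per comparison, and the 3 genes most like the member with the widest range of group means. The same rule for Trp53 could not be applied. Further genes and markers, such as Sfn, Epha2, Pmaip1 and those of line 7-4-1, were chosen after their values were seen.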

Additional observations from a re-analysis of the deposited data

Results flagged for a closer look

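In the 5 TKO EB arrays, 14 probe sets of the members and Cdkn1a were checked for 1 array far from the others. Such an array was found for 2 of them. Mdm2 (1423605_a_at) was at 2233.2 in TKO EB 7-4-1, with a gap to the next array of 0.748 of the whole log2 range of the group. Trp53inp1 (1416926_at) was at 5873.4 in the same array, with a gap of 0.855 of the range. Both are the lowest value of their group, and the critical share for 5 arrays is 0.71. Independent probe sets would pass it about 1 time in 20. The 14 sets share their arrays and some share a gene, and the share over all probe sets was not computed. No conclusion is therefore drawn from the count. The further sets of these genes above the filter, Mdm2 1427718_a_at and Trp53inp1 1416927_at, were not flagged.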

How the results depend on the processing

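Each comparison was refitted with each of 14 arrays left out in turn and under other scalings, floors, filters, probe set choices, blocks and samples. No called member changed direction, and 41 member values lost their call: Perp 18 times in WT and 21 in TKO, Bbc3 2 times in WT. When 1 array was left out, 4589 to 6776 of all genes were called in WT and 3559 to 6233 in TKO. In these fits the number of members called ranged from 1 to 3 in WT and from 1 to 3 in TKO. That number was 0 throughout between genotypes and for the difference of the changes. In TKO it was 1, Ccng1, under quantile normalization, median centring, a floor of 64, no filter, the mean over probe sets, no trend, the line as a fixed block, only the groups compared, both Ta1-12 arrays left out, and EB Dutch and 14-14-4 left out. Without both 7-4-1 arrays it was 4 of 7, where 3101 of 14365 genes were called in TKO in place of 5132. That alternative was added after the data were seen. So were the choices of the probe set by its mean intensity or by its mean log2 before the floor; both gave 3 members called in WT and 2 in TKO. The line as a fixed replicate block left 2 members in WT and 1 in TKO; as a random block (correlation 0.032) it left 3 and 2. The fixed block used only lines measured at both stages, so TKO EB lines without an ESC array did not count in it.

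Over all genes, scaling moved the split. Genes called higher and lower in WT were 3767 and 2493 (60.2% higher) as reported, 3027 and 3478 (46.5%) after quantile normalization and 2979 and 3276 (47.6%) after centring, and the median change went from 0.13 to -0.07. In TKO the share higher was 58.2%, 48.6% and 49.8%, and the median went from 0.08 to -0.04. Genes called in TKO, 5132 as reported, were 3161 with the fixed block, 3068 without both Ta1-12 arrays and 3101 without both 7-4-1 arrays. The fixed block also left out the TKO EB lines that have no ESC array. Between TKO EB and WT EB, 0 genes became 1422 without TKO EB Ta1-12, 1101 without both Ta1-12 arrays, 8 with a floor of 64 and 2 without WT EB R1. Between TKO ESC and WT ESC they became 5 without WT ESC B21, 2 without the filter, and 1 with a floor of 64 or without TKO ESC Dutch. For the difference of the changes they became 26 without TKO EB Ta1-12, 5 without both Ta1-12 arrays, and 1 without the filter or without WT EB R1. The cause was not tested.

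With 3 to 5 arrays a group the intervals stay wide, most of all for Perp. A change in transcripts that only an unnamed probe set reads is not analysed here. The adjusted p-values rest on the spread between lines, each of which gave 1 array per stage. As reported, that spread was estimated once over all 4 groups. The p-values and intervals of WT or ESC comparisons thus also carry the spread of TKO EB. The median SD over all genes was 0.416 in TKO EB, 0.281 in WT EB, 0.211 in WT ESC and 0.194 in TKO ESC.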
